A study of Homo sapiens with 12 samples.

Results

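The genes described here are 40 genes of the NRF2, glutathione and thioredoxin defence against oxidants and electrophiles. They were taken by gene symbol from a fixed list, and all 40 were present in both deposited expression tables, which share 26115 gene symbols. Messenger RNA was sequenced from 2 lines labelled as human esophageal cancer cell lines with a WT genotype, KYSE410 and KYSE150, with 12 libraries in all. The groups were KYSE410 in 0.5% oxygen (hypoxia), KYSE410 in 21% oxygen (normoxia), KYSE150 in 0.5% oxygen and KYSE150 in 21% oxygen, with 3 libraries each. The labels give 48 h for the hypoxic cultures and a time point of 0 for the normoxic ones, whereas the design text gives 1 duration for both oxygen levels, so the length of the normoxic culture is not settled. Values are FPKM (fragments per kilobase, a level corrected for transcript length and library size), and the read depth behind them is unknown.

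NRF2, encoded by NFE2L2, is a transcription factor that the adaptor KEAP1 normally holds in the cytoplasm and presents for degradation. Oxidants and electrophiles modify cysteines of KEAP1, NRF2 then accumulates, pairs with a small MAF protein and binds antioxidant response elements near genes for glutathione synthesis, thioredoxin reduction, conjugation and NADPH supply. Peroxiredoxins and glutathione peroxidases remove peroxides with electrons from thioredoxin and glutathione. Mutations that activate NRF2 are well known in squamous cancers of the esophagus.

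The antioxidant response element core (letters TGACNNNGC, both strands) was searched in RefSeq promoter windows, from 250 bases before to 50 bases after each gene's start, which were found for 30 of the 40 members. It occurred in 5 of the 30 (TXNRD1, GCLM, GPX2, GSTP1 and ME1), or 16.7%, against 13.3% of 35116 promoter windows of the same length, so the members were close to the background. One match in each of 4 of these genes is printed below because the genes did not move alike in low oxygen: TXNRD1, GCLM and ME1 fell in both lines, and GSTP1 rose in KYSE410. Capitals mark the match, each sequence runs 5′ to 3′ on the gene's strand, positions count back from the gene's start, and the build is GRCh38.p14.
TXNRD1: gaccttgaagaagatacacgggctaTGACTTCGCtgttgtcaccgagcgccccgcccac
GCLM: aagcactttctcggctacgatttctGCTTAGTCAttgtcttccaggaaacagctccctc
GSTP1: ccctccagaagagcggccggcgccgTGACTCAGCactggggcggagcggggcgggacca
ME1: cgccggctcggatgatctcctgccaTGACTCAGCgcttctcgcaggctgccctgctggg
The TXNRD1 stretch is chr12:104215655-104215713 on the plus strand (positions -124 to -66), and the GCLM stretch is chr1:93909431-93909489 on the minus strand (positions -59 to -1), where the match reads in reverse. The GSTP1 stretch is chr11:67583721-67583779 on the plus strand (positions -91 to -33), and the ME1 stretch is chr6:83431155-83431213 on the minus strand (positions -162 to -104). In GSTP1 and ME1 the match also holds the letters TGACTCA of an AP-1 site, which occurred in 10.0% of the members' windows and 4.95% of all windows. ACGTG, the only form of the hypoxia response element core that was searched, occurred in 7 of 30 members' windows (23.3%), against 21.4% of all windows. TXNRD1 and ME1 each hold a second match that is not printed, whose first base lies at position -8 in TXNRD1 and 11 bases past the start in ME1. A match of letters is a description and does not show that a factor binds there.

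Hypoxia markers moved as the oxygen labels state in both lines: CA9 was higher in hypoxia by 3.46 in KYSE410 and 2.85 in KYSE150, and NDRG1 by 6.14 and 3.90 on the log2 scale. Squamous markers were near absent in KYSE150: 0 of 6 (TP63, KRT5, KRT14, KRT6A, SOX2 and PKP1) reached 1 FPKM, against 5 of 6 in KYSE410. In KYSE410 these markers summed to 621 to 631 FPKM in hypoxia and 227 to 233 FPKM in normoxia, and in KYSE150 to 0.264 to 0.417 FPKM in hypoxia and 0.322 to 0.616 FPKM in normoxia. Epithelial markers reached 1 FPKM for 4 of 5 genes in KYSE410 and 3 of 5 in KYSE150, endothelial markers for 0 of 3 in both lines, immune markers for 1 of 4 (CD68) in both, and fibroblast markers for 0 of 5 in KYSE410 and up to 2 of 5 in KYSE150. The epithelial markers summed to 1050 to 1100 FPKM in hypoxia and 1910 to 2040 FPKM in normoxia in KYSE410, and to 678 to 702 FPKM in hypoxia and 552 to 716 FPKM in normoxia in KYSE150. The immune markers, nearly all CD68, summed to 80.8 to 85.6 FPKM in hypoxia and 29.8 to 32.7 FPKM in normoxia in KYSE410, and to 26.9 to 30.4 FPKM in hypoxia and 15.3 to 17.5 FPKM in normoxia in KYSE150. The part of these marker levels in the results was not tested. KYSE150 normoxia replicate 2 stood apart: its log2 values differed from those of the other libraries of its group with an SD of 0.339 and 0.369, against 0.153 to 0.197 in all other same-group pairs. It held the highest value of its group for 29 of the 38 members tested in KYSE150 and the lowest for 9. KYSE410 libraries carry sample-sheet numbers 38 to 40 in normoxia and 56 to 58 in hypoxia, so in this line the oxygen level and the set of libraries cannot be told apart, and this holds for every difference between lines in response. The samples are bulk cultures, in which fewer cells with a transcript and less transcript per cell cannot be told apart.

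In low oxygen the 40 genes did not move alike. The transcript of NRF2 itself and the genes for glutathione synthesis, thioredoxin reductase and sulfiredoxin fell in both lines, whereas 5 of 6 peroxiredoxins, thioredoxin, superoxide dismutase SOD1 and the glutathione transferases MGST2 and MGST3 rose in KYSE410 and were lower or not called in KYSE150, with PRDX2 higher in both lines. Changes on the log2(FPKM + 1) scale were tested with limma in genes that averaged 1 FPKM or more, and a change was called where its p, adjusted over all genes tested by Benjamini-Hochberg, was under 0.05. On this scale the change of a gene with low values is understated. In KYSE410, 15 of the 32 members tested rose and 12 fell (46.9% and 37.5%), against 31.2% and 51.9% of all 12054 genes tested (83.1% in either direction), and the groups did not overlap for 27 members, against 84.6% of all genes. In KYSE150, 4 of the 38 members tested rose and 22 fell (10.5% and 57.9%), against 23.5% and 38.8% of all 12692 genes tested (62.3% in either direction), with groups apart for 29 members and 69.6% of all genes. The median log2 change of the members was 0.07 in KYSE410 and -0.47 in KYSE150, beside medians of -0.21 and -0.13 over all genes tested.

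The balance of rises and falls moved with the scaling. Among all called genes, 37.6% were higher in KYSE410, but 50.3% under median-of-ratios scaling and 26.6% when every library was scaled to a common sum, and the KYSE150 shares were 37.7%, 50.7% and 38.5%. The all-gene medians under these 2 alternatives were 0.01 and -0.42 in KYSE410 and 0.00 and -0.12 in KYSE150. The members called in KYSE410 were 18 higher and 11 lower under median-of-ratios scaling and 12 higher and 15 lower under the common sum. Under quantile normalization 49.7% of all calls in KYSE410 were higher and the members numbered 12 higher and 14 lower. The members' median in KYSE410 was 0.32 under median-of-ratios scaling, -0.17 under the common sum and -0.07 under quantile normalization, so its sign depends on scaling. Transcript length moved with the response in KYSE410: genes with transcripts up to 1000 bases had a median change of 0.46, and those over 4000 bases a median of -0.40, beside member medians of 0.73 (2 members) and -0.75 (4 members). After the trends with length and GC content were removed, 16 members were called higher and 11 lower in KYSE410. Changes in KYSE410 that stayed called but moved by over 1.5 times included TXN2 (0.31) and CAT (0.32) under the common sum, GSR (-0.44) under median-of-ratios scaling, and PRDX1 (0.90), OSGIN1 (-0.55) and ABCC1 (-0.52) under quantile normalization.

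**Figure D1:**
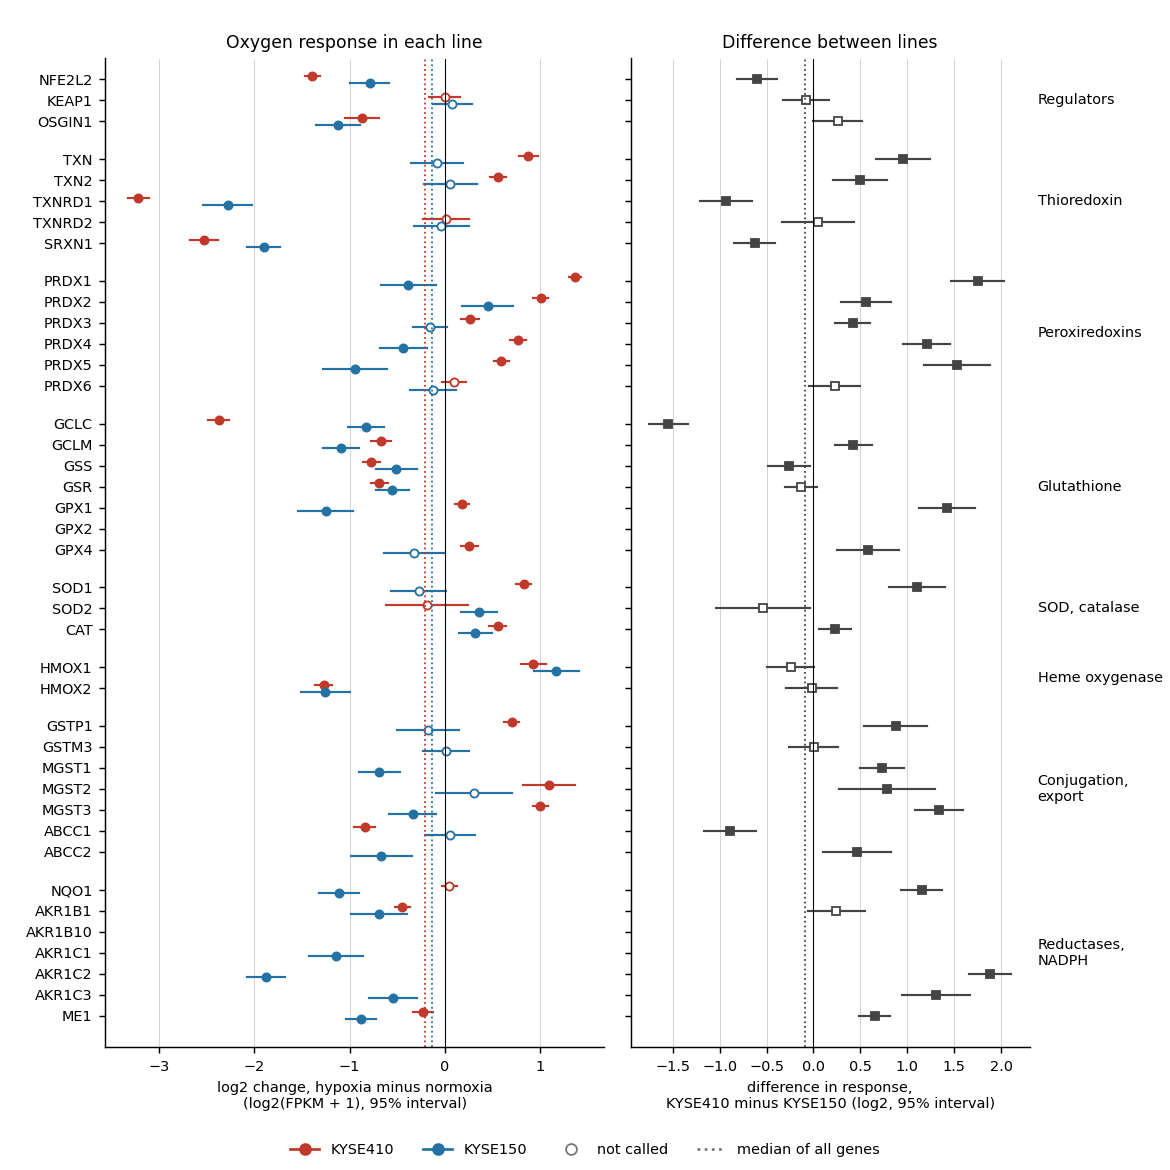
Left, log2 change in hypoxia minus normoxia (log2(FPKM + 1), horizontal axis) of each member by role, in KYSE410 (red) and KYSE150 (blue). Right, the difference in response, KYSE410 minus KYSE150. Bars are 95% intervals, open symbols were not called, and dotted lines are the medians of all genes. TXNRD1, at -3.21 in KYSE410 and -2.28 in KYSE150, lies farthest to the left, and PRDX1 lies on opposite sides of 0 in the lines (1.37 and -0.39).

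Across the 2 lines, 11 members fell in both: NFE2L2, OSGIN1, TXNRD1, SRXN1, GCLC, GCLM, GSS, GSR, HMOX2, AKR1B1 and ME1. Of the 10951 genes tested in both lines, 29.4% were lower in both. The calls of 10 of the 11 were kept in both lines under every alternative that tested them, the exception being ME1 in KYSE410. PRDX2, HMOX1 and CAT rose in both lines, where 13.8% of all genes did. PRDX1, PRDX4, PRDX5, GPX1 and MGST3 rose in KYSE410 and fell in KYSE150, a pattern seen in 4.94% of all genes. Under every alternative, 0 of these 5 kept both calls: PRDX1, PRDX4 and MGST3 lost the KYSE150 call under at least 1, and PRDX5 and GPX1 the KYSE410 call. The number of members with this pattern was 3 under median-of-ratios scaling, under quantile normalization and without KYSE150 hypoxia replicate 1, 2 or 3. These were not always from the 5 named: under median-of-ratios scaling NQO1 was counted beside PRDX5 and GPX1. Further members joined the pattern under some alternatives, among them GPX4 and SOD1 without KYSE150 normoxia replicate 2 or 3.

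Among the regulators, NFE2L2, which encodes NRF2 (GENCODE 29 on hg38, chromosome 2, 177227595 to 177392697, minus strand), had 37.5, 38.8 and 39.3 FPKM in the 3 hypoxic KYSE410 libraries, against 106, 101 and 101 FPKM in the normoxic ones. In KYSE150 it had 30.7, 32.01 and 37.99 FPKM in hypoxia, against 58.2, 57.7 and 59.7 FPKM in normoxia. All hypoxic libraries of both lines lay below all normoxic ones, and the hypoxic ranges of the lines overlapped. The log2 change was -1.39 ± 0.04 (SE) in KYSE410 (limma, adjusted p = 8.83e-09) and -0.79 ± 0.09 in KYSE150 (limma, adjusted p = 0.000172). KEAP1, the adaptor that directs NRF2 to degradation, was not called in either line: it averaged 9.33 ± 0.69 FPKM in hypoxia and 9.34 ± 0.712 FPKM in normoxia in KYSE410, and 6.75 ± 0.322 and 6.36 ± 0.585 FPKM in hypoxia and normoxia in KYSE150 (SD, n = 3 each). The 95% intervals of its log2 change were -0.16 to 0.16 in KYSE410 and -0.13 to 0.28 in KYSE150. In KYSE410 the KEAP1 value was called higher under median-of-ratios scaling, quantile normalization and the length and GC correction, and lower under the common sum. OSGIN1, an oxidative-stress-induced growth inhibitor and NRF2 target, was the scarcest of the genes that fell in both lines. It had 2.33, 2.32 and 1.86 FPKM in hypoxic KYSE410, against 4.54, 4.76 and 4.99 FPKM in normoxic KYSE410, and 1.84, 1.57 and 1.66 FPKM in hypoxic KYSE150, against 4.61, 5.47 and 4.51 FPKM in normoxic KYSE150. Its groups did not overlap in either line, with log2 changes of -0.86 ± 0.08 in KYSE410 and -1.12 ± 0.10 in KYSE150 (limma, adjusted p = 9.73e-06 and 4.64e-05). In the annotation OSGIN1 overlaps the protein-coding entry AC009119.2 on its own strand, and NFE2L2 overlaps AGPS on the opposite strand. The strand setting is not given, so reads of the overlapping genes may be mixed.

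In the thioredoxin system the reductase and sulfiredoxin moved opposite to thioredoxin itself in KYSE410. TXNRD1, the cytosolic thioredoxin reductase that recharges thioredoxin with NADPH (chromosome 12, 104215779 to 104350305, plus strand), had 42.01, 41.96 and 37.96 FPKM in hypoxic KYSE410, against 369.9, 395 and 390.4 FPKM in normoxic KYSE410. The KYSE150 values were 41.03, 34.7 and 37.7 FPKM in hypoxia, against 198, 162 and 205 FPKM in normoxia. Its log2 changes of -3.21 ± 0.05 in KYSE410 and -2.28 ± 0.11 in KYSE150 were the largest falls among the members in each line (limma, adjusted p = 1.64e-09 and 2.96e-06). The fall was larger in KYSE410, with a difference of -0.93 ± 0.13, KYSE410 minus KYSE150 (limma, adjusted p = 5.27e-05). TXNRD1 overlaps EID3 on the same strand, so reads of these 2 genes may be split. SRXN1, sulfiredoxin, which repairs over-oxidized peroxiredoxins (chromosome 20, 646615 to 653370, minus strand), had 15.8, 13.1 and 13.5 FPKM in hypoxic KYSE410, against 86.8, 83.5 and 87.3 FPKM in normoxic KYSE410. Hypoxic KYSE150 libraries had 17.6, 16.7 and 16.3 FPKM, against 63.1, 70.5 and 63.8 FPKM in normoxic ones. The groups were far apart in both lines, with log2 changes of -2.52 ± 0.07 in KYSE410 and -1.90 ± 0.07 in KYSE150 (limma, adjusted p = 9.86e-09 and 1.24e-06). SRXN1 shares its locus with the overlapping entry AL121758.1.

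TXN, the cytosolic thioredoxin, averaged 537 ± 12.2 FPKM in hypoxia and 293 ± 15.5 FPKM in normoxia in KYSE410 and rose by 0.88 on the log2 scale (limma, adjusted p = 2.14e-07). Under quantile normalization this change was 0.12. In KYSE150 TXN averaged 207 ± 4.0 FPKM in hypoxia and 220.5 ± 36 FPKM in normoxia, and the groups overlapped (log2 change -0.08, 95% interval -0.35 to 0.19). The mitochondrial thioredoxin TXN2 showed the same calls, with 59.2 ± 2.07 FPKM in hypoxia and 40.05 ± 0.323 FPKM in normoxia in KYSE410 (log2 change 0.55) and 19.3 ± 1.79 and 18.6 ± 2.89 FPKM in hypoxia and normoxia in KYSE150 (log2 change 0.06, not called). TXNRD2, the mitochondrial reductase, was called in neither line, with 95% intervals of -0.23 to 0.25 in KYSE410 and -0.33 to 0.25 in KYSE150, and it was called higher in KYSE410 under quantile normalization (0.33). TXN has 7 named pseudogenes in the annotation, so its level is uncertain.

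**Figure D2:**
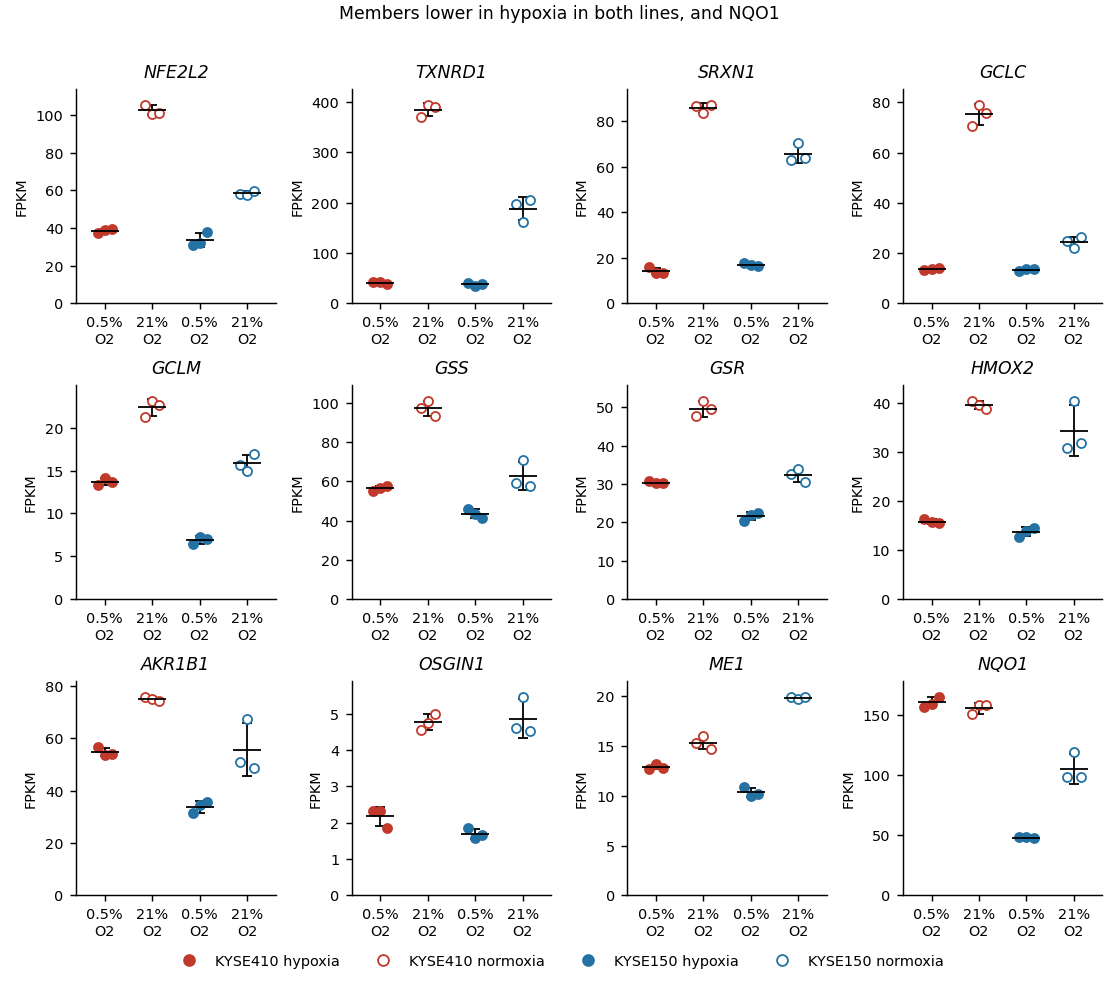
Level in FPKM (vertical axis, starting at 0) of 12 members in each library (points), by group in the order of the legend. Bars are group means and error bars are SD over 3 libraries. In all panels but that of NQO1 the hypoxic libraries of each line lie below the normoxic ones, and NQO1 had means of 161 and 156 FPKM in hypoxic and normoxic KYSE410.

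The peroxiredoxins, which reduce hydrogen peroxide and organic peroxides, were among the most abundant members. PRDX1 to PRDX6 summed to 1216.6, 1222 and 1264 FPKM in hypoxic KYSE410, against 759, 747 and 767 FPKM in normoxic KYSE410. In KYSE150 they summed to 1083, 1087.5 and 1069.5 FPKM in hypoxia, against 1261.5, 1662 and 1247 FPKM in normoxia. The sum was thus above its normoxic range in KYSE410 and below it in KYSE150. Of the 6 genes, 5 rose in KYSE410, while in KYSE150 1 rose (PRDX2), 3 fell and 2 were not called. Of all genes tested, 31.2% rose in KYSE410, and 23.5% rose and 38.8% fell in KYSE150. Not kept under every alternative were the rises of PRDX3 and PRDX5 in KYSE410 and the falls of PRDX1 and PRDX4 in KYSE150.

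PRDX1, an abundant cytosolic peroxiredoxin (chromosome 1, 45511036 to 45523047, minus strand), had 350.3, 351 and 356 FPKM in hypoxic KYSE410, against 135, 135 and 138 FPKM in normoxic KYSE410. In KYSE150 the levels were 399.6, 419 and 401 FPKM in hypoxia, against 484, 641 and 483 FPKM in normoxia. All hypoxic libraries were higher than the normoxic ones in KYSE410 and lower in KYSE150, where replicate 2 of normoxia lay far above the other 2. The log2 change was 1.37 ± 0.03 in KYSE410 (limma, adjusted p = 4.16e-09) and -0.39 ± 0.12 in KYSE150 (limma, adjusted p = 0.0265), a difference of 1.75 ± 0.13, KYSE410 minus KYSE150 (limma, adjusted p = 4.8e-07). The KYSE150 fall was not called under median-of-ratios scaling (-0.23, limma adjusted p = 0.151), without the filter on low values, or when hypoxia replicate 1, 2 or 3 was left out (log2 changes -0.37, -0.41 and -0.38; limma adjusted p = 0.088, 0.0674 and 0.0863). Without normoxia replicate 2 it was -0.25 and stayed called. PRDX1 overlaps MMACHC on the opposite strand, and the strand setting is not given in the sources used here.

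PRDX4, the peroxiredoxin of the endoplasmic reticulum, had 93.5, 94.1 and 100.3 FPKM in hypoxic KYSE410, against 55.99, 55.7 and 56.1 FPKM in normoxic KYSE410. KYSE150 libraries held 132, 131 and 132 FPKM in hypoxia, against 168, 210.3 and 162 FPKM in normoxia. The groups were apart in both lines and in opposite directions, with log2 changes of 0.77 ± 0.04 in KYSE410 and -0.44 ± 0.11 in KYSE150 (limma, adjusted p = 1.83e-07 and 0.00803). The KYSE150 fall was not called under median-of-ratios scaling (-0.28, limma adjusted p = 0.053). PRDX5, an atypical peroxiredoxin found in mitochondria, peroxisomes and cytosol, had 319, 313 and 330.4 FPKM in hypoxic KYSE410, against 219, 206 and 213 FPKM in normoxic KYSE410. In KYSE150 it had 174, 162 and 166 FPKM in hypoxia, against 283, 411 and 287 FPKM in normoxia. Its fall in KYSE150 was the largest among the peroxiredoxins at -0.94 ± 0.14 (limma, adjusted p = 0.000824), and its rise in KYSE410 was 0.59 ± 0.04 (limma, adjusted p = 7.19e-07). The rise was 0.04 and not called under quantile normalization (limma, adjusted p = 0.325).

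PRDX2, a cytosolic peroxiredoxin best known from red blood cells, was the member of the family that rose in both lines. It had 135, 137 and 138 FPKM in hypoxic KYSE410, against 68.4, 65.7 and 69.3 FPKM in normoxic KYSE410, and 184, 181 and 179.7 FPKM in hypoxic KYSE150, against 124, 159 and 119 FPKM in normoxic KYSE150. The groups did not overlap in either line, and the log2 changes were 1.00 ± 0.03 in KYSE410 and 0.45 ± 0.11 in KYSE150 (limma, adjusted p = 2.68e-08 and 0.00971). PRDX2 overlaps HOOK2 on its own strand and has 4 named pseudogenes. The mitochondrial PRDX3 averaged 215 ± 11.2 FPKM in hypoxia and 179 ± 3.46 FPKM in normoxia in KYSE410, a rise of 0.26 (limma, adjusted p = 4e-04) that was 0.02 and not called under the common sum and -0.16 under quantile normalization. In KYSE150 it averaged 68.7 ± 2.0 FPKM in hypoxia and 76.8 ± 5.47 FPKM in normoxia and was not called. PRDX6, which has 1 catalytic cysteine and also phospholipase activity, was called in neither line, with log2 changes of 0.10 in KYSE410 and -0.13 in KYSE150. In KYSE410 it was called higher under median-of-ratios scaling (0.35) and without normoxia replicate 3 (0.16), and lower under the common sum (-0.14).

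**Figure D3:**
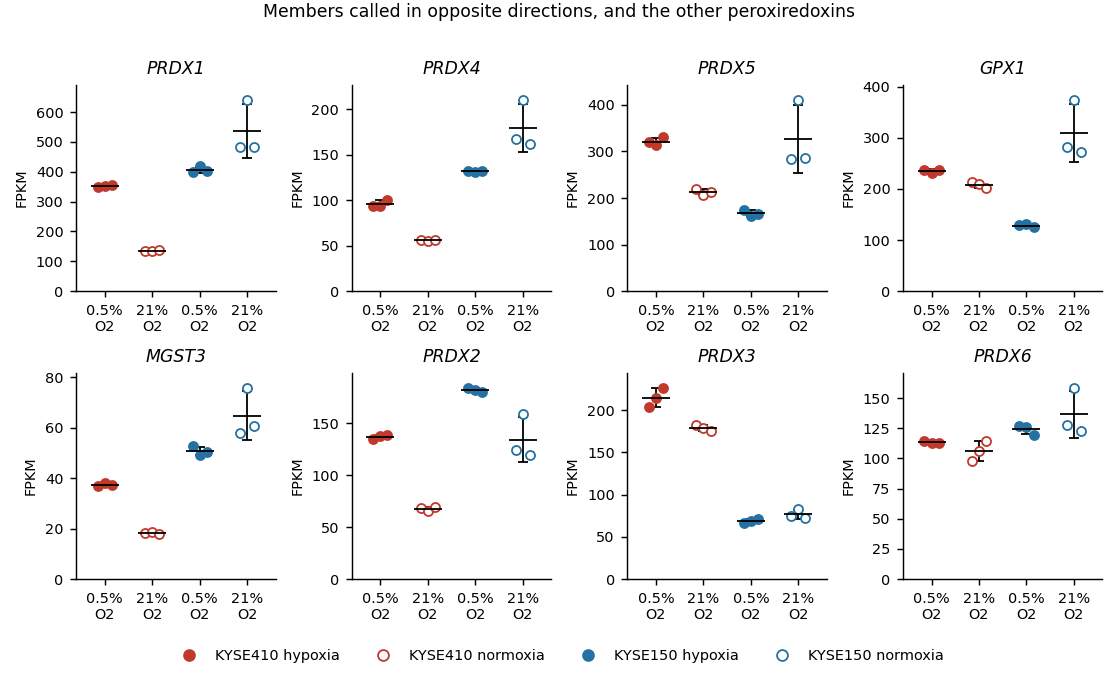
Level in FPKM (vertical axis, starting at 0) of 8 members in each library (points), by group in the order of the legend. Bars are group means and error bars are SD over 3 libraries. PRDX1 averaged 352 and 136 FPKM in hypoxic and normoxic KYSE410, and 407 and 536 FPKM in hypoxic and normoxic KYSE150, and KYSE150 normoxia has 1 library above the other 2 in every panel.

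All 4 genes of glutathione synthesis and recycling fell in both lines, a pattern seen in 29.4% of the 10951 genes tested in both. GCLC, the catalytic subunit of glutamate-cysteine ligase, the rate-limiting enzyme of glutathione synthesis (chromosome 6, 53497341 to 53616970, minus strand), had 13.3, 13.6 and 14.2 FPKM in hypoxic KYSE410, against 70.6, 79.1 and 75.9 FPKM in normoxic KYSE410. The KYSE150 values were 12.8, 13.6 and 13.5 FPKM in hypoxia, against 24.8, 22.1 and 26.3 FPKM in normoxia. The hypoxic ranges of the lines overlapped while the normoxic ones lay far apart, and the log2 changes were -2.37 ± 0.05 in KYSE410 and -0.83 ± 0.08 in KYSE150 (limma, adjusted p = 4.56e-09 and 9.26e-05). The difference of -1.55 ± 0.10, KYSE410 minus KYSE150, was the most negative among the members (limma, adjusted p = 1.21e-07). GCLM, the modifier subunit of the same enzyme (chromosome 1, 93885205 to 93909456, minus strand), had 13.4, 14.1 and 13.7 FPKM in hypoxic KYSE410, against 21.3, 23.1 and 22.6 FPKM in normoxic KYSE410. Hypoxic KYSE150 libraries had 6.41, 7.301 and 6.98 FPKM, against 15.6, 14.98 and 16.9 FPKM in normoxic ones. It fell more in KYSE150, with log2 changes of -0.67 ± 0.04 in KYSE410 and -1.09 ± 0.08 in KYSE150 and a difference of 0.42, KYSE410 minus KYSE150 (limma, adjusted p = 1.71e-06, 2.32e-05 and 0.00138). That difference was 0.19 and not called under the common sum, and the KYSE410 fall was -0.43 under median-of-ratios scaling and -0.28 after the length and GC correction.

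GSS, glutathione synthetase, which adds glycine in the last step, had 55.1, 56.3 and 57.8 FPKM in hypoxic KYSE410, against 97.1, 101 and 93.2 FPKM in normoxic KYSE410. In KYSE150 the levels were 45.7, 43.4 and 41.4 FPKM in hypoxia, against 59.2, 70.7 and 57.6 FPKM in normoxia. The groups did not overlap, and GSS fell, with log2 changes of -0.77 ± 0.04 in KYSE410 and -0.51 ± 0.09 in KYSE150 (limma, adjusted p = 2.8e-07 and 0.0021). GSR, glutathione reductase, which restores oxidized glutathione with NADPH, had 30.7, 30.3 and 30.2 FPKM in hypoxic KYSE410, against 47.6, 51.7 and 49.5 FPKM in normoxic KYSE410. KYSE150 libraries held 20.4, 22.1 and 22.5 FPKM in hypoxia, against 32.5, 33.8 and 30.5 FPKM in normoxia. Its log2 changes were -0.69 ± 0.04 in KYSE410 and -0.55 ± 0.07 in KYSE150 (limma, adjusted p = 5.41e-07 and 0.000401), and the difference was not called (95% interval -0.31 to 0.04, KYSE410 minus KYSE150). That difference was called without KYSE150 normoxia replicate 2 (-0.17, limma adjusted p = 0.0453).

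The glutathione peroxidases did not follow glutathione synthesis in KYSE410. GPX1, the abundant cytosolic and mitochondrial selenoenzyme that reduces hydrogen peroxide, had 236, 231 and 238 FPKM in hypoxic KYSE410, against 214, 209 and 202 FPKM in normoxic KYSE410. In KYSE150 it had 128, 131 and 125 FPKM in hypoxia, against 282, 374 and 271 FPKM in normoxia. The fall of -1.25 ± 0.12 in KYSE150 (limma, adjusted p = 8.91e-05) held in every alternative, whereas the rise of 0.17 ± 0.03 in KYSE410 (limma, adjusted p = 0.000891) was -0.07 under the common sum, -0.31 under quantile normalization and 0.02 after the length and GC correction. GPX4, which reduces lipid peroxides in membranes and restrains ferroptosis, averaged 153 ± 1.58 FPKM in hypoxia and 128 ± 5.65 FPKM in normoxia in KYSE410, a rise of 0.26 (limma, adjusted p = 0.000222) that was lost under the common sum (0.02) and quantile normalization (-0.04). In KYSE150 GPX4 averaged 151 ± 2.46 FPKM in hypoxia and 192 ± 39.8 FPKM in normoxia and was not called (-0.33, limma adjusted p = 0.0673), but it was called lower without normoxia replicate 2 (-0.16, limma adjusted p = 0.00328) or 3 (-0.42, limma adjusted p = 0.0326). GPX2, the epithelial peroxidase of the gut, stayed below 0.4 FPKM in every library and was not tested.

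Among the enzymes that act on superoxide, peroxide and heme, HMOX1 and HMOX2 moved in opposite directions. HMOX1, the inducible heme oxygenase (chromosome 22, 35380361 to 35394214, plus strand), had 4.804, 4.64 and 4.78 FPKM in hypoxic KYSE410, against 2.09, 2.05 and 1.93 FPKM in normoxic KYSE410. The KYSE150 values were 8.31, 7.98 and 7.36 FPKM in hypoxia, against 2.77, 3.47 and 2.64 FPKM in normoxia. It rose without overlap in both lines, by 0.93 ± 0.06 in KYSE410 and 1.17 ± 0.10 in KYSE150 (limma, adjusted p = 9.39e-07 and 5.01e-05). HMOX2, the constitutive heme oxygenase, had 16.3, 15.7 and 15.4 FPKM in hypoxic KYSE410, against 40.4, 39.6 and 38.8 FPKM in normoxic KYSE410. Hypoxic KYSE150 libraries had 12.7, 13.98 and 14.5 FPKM, against 30.9, 40.4 and 31.8 FPKM in normoxic ones. It fell, with log2 changes of -1.27 ± 0.04 in KYSE410 and -1.25 ± 0.11 in KYSE150 (limma, adjusted p = 1.95e-08 and 5.34e-05), and the 95% interval of the difference was -0.29 to 0.25, KYSE410 minus KYSE150. HMOX2 overlaps NMRAL1 on the opposite strand, so with the strand setting not given its reads may include those of the other gene.

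CAT, catalase, the peroxisomal enzyme that splits hydrogen peroxide, had 28.3, 27.1 and 28.1 FPKM in hypoxic KYSE410, against 18.8, 19.05 and 18.3 FPKM in normoxic KYSE410. In KYSE150 the levels were 28.8, 27.7 and 26.7 FPKM in hypoxia, against 21.8, 20.7 and 23.6 FPKM in normoxia. The rise was 0.55 ± 0.04 in KYSE410 and 0.32 ± 0.07 in KYSE150 (limma, adjusted p = 1.76e-06 and 0.00678). SOD1, the cytosolic copper and zinc superoxide dismutase, had 166, 173 and 176 FPKM in hypoxic KYSE410, against 95.9, 95.04 and 98.4 FPKM in normoxic KYSE410. KYSE150 libraries held 128, 127 and 127 FPKM in hypoxia, against 143, 189 and 136 FPKM in normoxia. SOD1 rose by 0.83 ± 0.03 in KYSE410 (limma, adjusted p = 8.41e-08), and in KYSE150 its groups did not overlap but the change of -0.28 ± 0.12 was not called (limma, adjusted p = 0.0865). The KYSE150 change was called without normoxia replicate 2 (-0.13, limma adjusted p = 0.0119) or 3 (-0.37, limma adjusted p = 0.0379). SOD2, the mitochondrial manganese enzyme, averaged 34.95 ± 3.62 FPKM in hypoxia and 40.97 ± 12.9 FPKM in normoxia in KYSE410, where it was not called, and 26.5 ± 0.348 and 20.5 ± 1.82 FPKM in hypoxia and normoxia in KYSE150, a rise of 0.36 (limma, adjusted p = 0.00526), although a further SOD2 entry overlaps it in the annotation. The difference between lines was not called (-0.54, KYSE410 minus KYSE150), but it was without KYSE410 normoxia replicate 2 (-0.73, limma adjusted p = 0.00714) or KYSE150 normoxia replicate 3 (-0.61, limma adjusted p = 0.0458).

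Some conjugation and export genes differed widely in level between the lines: MGST1, GSTM3 and ABCC2 averaged under 1 FPKM in KYSE410 but not in KYSE150. GSTP1, the pi-class glutathione transferase, averaged 506 ± 10.6 FPKM in hypoxia and 312 ± 10.8 FPKM in normoxia in KYSE410, a rise of 0.70 (limma, adjusted p = 2.58e-07) that was -0.06 under quantile normalization. In KYSE150 it averaged 321 ± 4.38 FPKM in hypoxia and 368 ± 77.9 FPKM in normoxia and was not called, except as lower under quantile normalization (-0.295, limma adjusted p = 0.00703). MGST3, a microsomal transferase with peroxidase activity, had 36.96, 38.02 and 37.5 FPKM in hypoxic KYSE410, against 18.3, 18.5 and 17.9 FPKM in normoxic KYSE410. In KYSE150 it had 52.6, 49.2 and 50.3 FPKM in hypoxia, against 57.9, 75.8 and 60.7 FPKM in normoxia. It rose by 1.00 ± 0.04 in KYSE410 (limma, adjusted p = 3.98e-08) and changed by -0.34 ± 0.11 in KYSE150 (limma, adjusted p = 0.0242). The KYSE150 call was lost under median-of-ratios scaling (-0.18), without the filter on low values, after the length and GC correction (-0.15), and without hypoxia replicate 1, 2 or 3 (-0.36, -0.32 and -0.33; limma adjusted p = 0.0538, 0.0833 and 0.073); without normoxia replicate 2 it was -0.22 and called. MGST2, which conjugates glutathione to leukotriene A, rose by 1.09 in KYSE410 (18.3 ± 1.04 FPKM in hypoxia and 8.15 ± 1.68 FPKM in normoxia), and in KYSE150 it was not called (19.1 ± 0.619 and 15.7 ± 4.21 FPKM in hypoxia and normoxia) except after the length and GC correction (0.53) and without normoxia replicate 2 (0.47, limma adjusted p = 0.0139).

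MGST1, a microsomal transferase, was near 0 in KYSE410, with 0.0378, 0 and 0.0837 FPKM in hypoxia, against 0, 0.0378 and 0 FPKM in normoxia. KYSE150 had 51.5, 51.1 and 48.6 FPKM in hypoxia, against 78.04, 93.005 and 75.6 FPKM in normoxia, a fall with a log2 change of -0.69 ± 0.09 (limma, adjusted p = 0.000387). GSTM3, a mu-class transferase, was listed at 0 in all normoxic KYSE410 libraries, and hypoxic KYSE410 libraries had 0.0126, 0 and 0.00941 FPKM. KYSE150 had 44.4, 43.2 and 42.03 FPKM in hypoxia, against 39.3, 50.7 and 39.9 FPKM in normoxia, and the groups overlapped (log2 change 0.01 ± 0.10, not called). Without normoxia replicate 2 GSTM3 was called higher in KYSE150 (0.12, limma adjusted p = 0.0299). ABCC1, the exporter of glutathione conjugates also named MRP1, averaged 5.34 ± 0.122 FPKM in hypoxia and 10.4 ± 0.257 FPKM in normoxia in KYSE410, a fall of -0.84 (limma, adjusted p = 4.98e-07), and 17.7 ± 0.599 and 17.2 ± 2.66 FPKM in hypoxia and normoxia in KYSE150, where it was not called. ABCC2, a related exporter, had 0.292, 0.345 and 0.274 FPKM in hypoxic KYSE410, against 0.478, 0.642 and 0.3999 FPKM in normoxic KYSE410, and was not tested there. KYSE150 had 6.94, 6.44 and 6.62 FPKM in hypoxia, against 12.4, 8.72 and 12.8 FPKM in normoxia, a fall with a log2 change of -0.67 ± 0.14 (limma, adjusted p = 0.00347).

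Of the reductases and NADPH suppliers, NQO1 fell in 1 line only by these calls, and the difference between lines was itself called. NQO1, the quinone reductase widely used as an NRF2 readout (chromosome 16, 69706996 to 69726951, minus strand), had 157, 159.6 and 166 FPKM in hypoxic KYSE410, against 151, 158 and 158 FPKM in normoxic KYSE410. The KYSE150 values were 48.1, 48.7 and 47.4 FPKM in hypoxia, against 98.1, 119.5 and 98.3 FPKM in normoxia. The KYSE410 groups overlapped (0.04 ± 0.04, limma adjusted p = 0.249), the KYSE150 groups did not (-1.11 ± 0.09, limma adjusted p = 3.51e-05), and the difference was 1.15 ± 0.10, KYSE410 minus KYSE150 (limma, adjusted p = 1.61e-06). In KYSE410 the NQO1 change was called higher under median-of-ratios scaling (0.29) and after the length and GC correction (0.26), and lower under the common sum (-0.20) and quantile normalization (-0.29). AKR1B1, aldose reductase, had 56.6, 53.5 and 54.2 FPKM in hypoxic KYSE410, against 75.9, 74.99 and 74.4 FPKM in normoxic KYSE410. Hypoxic KYSE150 libraries had 31.3, 34.4 and 35.6 FPKM, against 50.9, 67.3 and 48.8 FPKM in normoxic ones. It fell without overlap in both lines, with log2 changes of -0.45 ± 0.03 in KYSE410 and -0.69 ± 0.12 in KYSE150 (limma, adjusted p = 3.13e-06 and 0.00188), although median-of-ratios scaling gave -0.20 in KYSE410 and 7 named pseudogenes make the level uncertain. ME1, the cytosolic malic enzyme that makes NADPH, had 12.7, 13.2 and 12.8 FPKM in hypoxic KYSE410, against 15.3, 16.1 and 14.7 FPKM in normoxic KYSE410. In KYSE150 the levels were 10.9, 9.94 and 10.2 FPKM in hypoxia, against 19.95, 19.7 and 19.98 FPKM in normoxia. The fall of -0.88 in KYSE150 held in every alternative (limma, adjusted p = 2.83e-05), whereas that of -0.23 in KYSE410 (limma, adjusted p = 0.00156) was 0.01 under median-of-ratios scaling and under quantile normalization and 0.05 after the length and GC correction.

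The aldo-keto reductases AKR1C1, AKR1C2 and AKR1C3, which reduce steroids, carbonyls and quinones, are related neighbours on chromosome 10, so reads may be split among them. AKR1C2 had 0.0347, 0.0656 and 0.0201 FPKM in hypoxic KYSE410, against 0.0582, 0.0139 and 0.0342 FPKM in normoxic KYSE410, and was not tested there. KYSE150 had 13.4, 14.7 and 14.9 FPKM in hypoxia, against 52.1, 61.4 and 53.2 FPKM in normoxia, a fall of -1.88 ± 0.09 (limma, adjusted p = 2.42e-06) and the third largest among the members there after TXNRD1 and SRXN1. AKR1C3 had 1.12, 0.711 and 0.534 FPKM in hypoxic KYSE410, against 0.0243, 0.0392 and 0.07404 FPKM in normoxic KYSE410. KYSE150 had 60.2, 53.6 and 58.2 FPKM in hypoxia, against 75.9, 98.7 and 78.98 FPKM in normoxia, a fall of -0.54 ± 0.11 (limma, adjusted p = 0.00323). In KYSE410 all hypoxic AKR1C3 values lay above all normoxic ones, at or near 1 FPKM or below. AKR1C1 averaged 0.432 ± 0.0307 FPKM in hypoxia and 2.18 ± 0.484 FPKM in normoxia in KYSE150, a fall of -1.14 (limma, adjusted p = 0.00012). AKR1B10, a related enzyme, stayed below 0.5 FPKM in every library and was not tested.

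The oxygen response was then compared between the lines by the interaction of line and oxygen in a fit of all 12 libraries. Of the 37 members tested, 21 had a higher log2 change in KYSE410 than in KYSE150 and 6 a lower one (56.8% and 16.2%), against 27.3% and 36.0% of all 12653 genes tested (63.3% in either direction). The median difference was 0.43 for the members and -0.09 for all genes. Of all called differences 43.1% were higher in KYSE410, against 28.1% under the common sum, where 17 members were higher and 11 lower. Lower in KYSE410 were NFE2L2 (-0.60), TXNRD1, SRXN1 (-0.62), GCLC, ABCC1 (-0.89) and GSS (-0.26). Beside PRDX1, the called members with the largest higher values that were tested in both lines were PRDX5 (1.53), GPX1 (1.42), MGST3 (1.34), PRDX4 (1.21), NQO1 and SOD1 (1.10; limma, adjusted p at most 2.73e-05 for these). The 21 and the 56.8% include AKR1C2, MGST1, ABCC2 and AKR1C3, which passed the filter through KYSE150 only and so say little about a response in KYSE410. The size of their positive differences depends on the pseudocount. Those of AKR1C2, MGST1 and ABCC2 hold mainly their fall in KYSE150, and that of AKR1C3 (1.30, but 3.12 with a pseudocount of 0.1) also its higher values at low levels in hypoxic KYSE410. The calls of GSS, CAT and ABCC2, lost under several alternatives, had limma adjusted p of 0.0429, 0.0231 and 0.029. The GSS call was lost when any 1 library was left out except KYSE150 normoxia replicate 2, KYSE150 hypoxia replicate 3 and KYSE410 normoxia replicate 3, with differences of -0.28 to -0.21 where it was lost, and also under median-of-ratios scaling (-0.15), without the filter on low values and after the length and GC correction (limma, adjusted p = 0.214, 0.0705 and 0.0774). The CAT call was lost without KYSE150 normoxia replicate 3 (0.18), KYSE150 hypoxia replicate 3 (0.20), KYSE410 normoxia replicate 3 (0.21) or KYSE410 hypoxia replicate 1 (0.22), after the length and GC correction (0.17) and under the common sum (-0.01). The ABCC2 call was lost without KYSE150 normoxia replicate 1 or 3, KYSE150 hypoxia replicate 2 or 3, KYSE410 normoxia replicate 1 or 3, or KYSE410 hypoxia replicate 2, at 0.37 to 0.46. It was also lost with a pseudocount of 0.1 (0.16, limma adjusted p = 0.584), under the common sum (0.38, limma adjusted p = 0.115) and without the filter on low values (limma adjusted p = 0.0642). The TXN2 difference (0.50) was 0.25 and no longer called under the common sum (limma, adjusted p = 0.0528), and the PRDX3 difference (0.42) was -0.16 and called under quantile normalization (limma, adjusted p = 0.042). Differences not called in the main test were called without 1 library for PRDX6 (0.30 without KYSE150 normoxia replicate 3), AKR1B1 (0.33 without the same library), OSGIN1 (0.33 without KYSE410 hypoxia replicate 3) and HMOX1 (-0.33 without KYSE150 normoxia replicate 2).

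Normoxic levels were compared in the same fit, and since the tables were deposited separately this assumes that FPKM is comparable between them. The normoxic libraries carry sample-sheet numbers 38 to 40 in KYSE410 and 50 to 52 in KYSE150. Line and set of libraries therefore cannot be told apart in this contrast. Of the 37 members tested, 15 were higher in KYSE410 and 20 lower (40.5% and 54.1%), against 40.4% and 38.8% of all genes tested (79.2% in either direction), and the lines did not overlap for 34 members, against 79.0% of all genes. Some enzymes were hardly present in KYSE410: MGST1 averaged 0.0126 FPKM in KYSE410 and 82.2 FPKM in KYSE150, AKR1C2 0.0354 and 55.6 FPKM, AKR1C3 0.0458 and 84.5 FPKM, and ABCC2 0.506 and 11.3 FPKM. These 4 and GSTM3, which was listed at 0 in normoxic KYSE410, are among the 20 lower members. They passed the filter through KYSE150 only, so their lower calls were largely set by the filter. The count of 20 and its share of 54.1% hold these calls, and the size of their log2 contrasts depends on the pseudocount. Genes with a high level in both lines differed too. PRDX1 (-1.96), MGST3 (-1.76), PRDX4 (-1.66) and PRDX2 (-0.96) were lower in KYSE410, which are also members that rose there in hypoxia. GCLC (1.59), PRDX3 (1.21), TXN2 (1.07), TXNRD1 (1.04), NFE2L2 (0.80), GSS (0.63), GSR (0.60) and NQO1 (0.57) were higher in KYSE410. The change in hypoxia and the normoxic contrast share the normoxic libraries, so their values are side by side and are not independent. The levels of GSTP1 (-0.22) and OSGIN1 (-0.02) were not called different. GSTP1 was called lower in KYSE410 without KYSE150 normoxia replicate 1 (-0.32) or 3 (-0.29), and the higher level of HMOX2 in KYSE410 (0.21, limma adjusted p = 0.0432) was no longer called without any 1 library except KYSE150 normoxia replicate 2, KYSE150 hypoxia replicate 1 and KYSE150 hypoxia replicate 3, at 0.14 to 0.23.

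**Figure D4:**
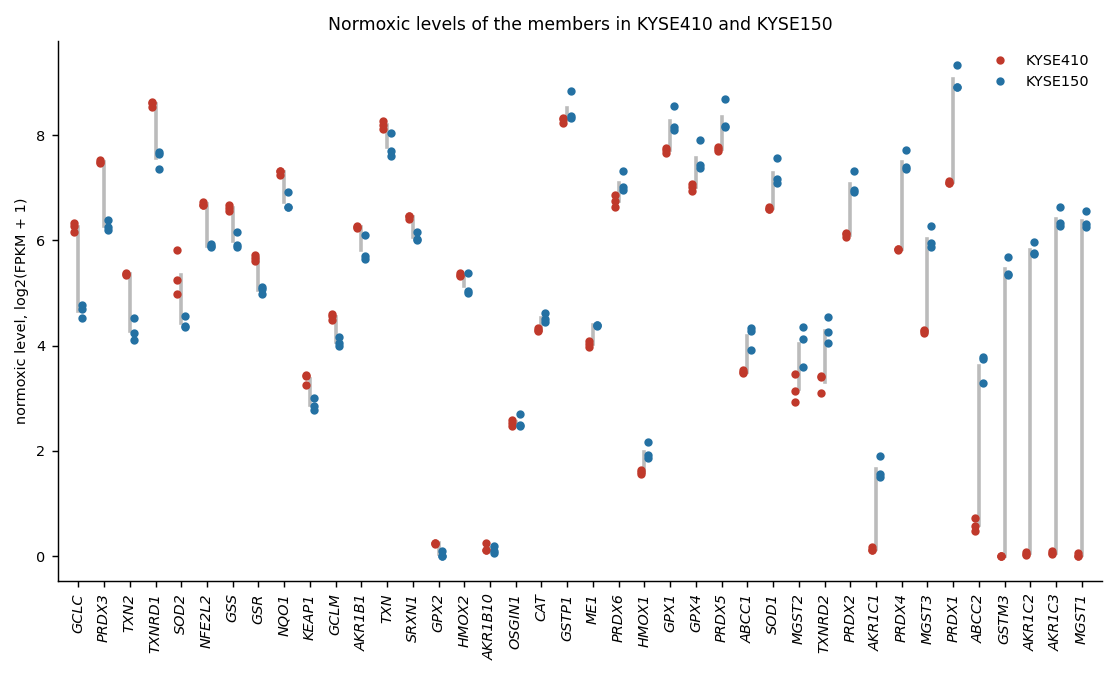
Normoxic level as log2(FPKM + 1) (vertical axis) of all 40 members (horizontal axis) in each library (points) of KYSE410 and KYSE150, with grey bars joining the line means, sorted by the difference between the lines. PRDX1 averaged 136 FPKM in KYSE410 and 536 FPKM in KYSE150, GCLC 75.2 and 24.4 FPKM, and MGST1, AKR1C1, AKR1C2, AKR1C3 and GSTM3 lie near 0 in KYSE410 but not in KYSE150.

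As a share of all FPKM, the 40 genes made up 0.830%, 0.836% and 0.836% in hypoxic KYSE410, against 0.866%, 0.857% and 0.868% in normoxic KYSE410. In KYSE150 they made up 0.700%, 0.706% and 0.697% in hypoxia, against 0.938%, 1.06% and 0.941% in normoxia. The hypoxic share lay below the normoxic one in both lines, by a wider gap in KYSE150, and the gap between lines was not tested. The summed FPKM went the other way in KYSE410, with 3464, 3477 and 3555 in hypoxia, against 3043, 3059 and 3079 in normoxia. In KYSE150 the sums were 2680, 2667 and 2637 in hypoxia, against 3476, 4385 and 3447 in normoxia. The direction in KYSE410 therefore depends on whether the sum is divided by the library total.

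Beyond the members, 92 other genes of the pathway were listed, with earlier results of these data known, of which 87 were in both tables. In KYSE410, 26 of 75 tested rose and 36 fell (34.7% and 48.0%), close to the shares of all genes. In KYSE150, 8 of 85 rose and 46 fell (9.41% and 54.1%), beside 23.5% and 38.8% of all genes. With other scalings the number that rose in KYSE410 was 16 (common sum), and the number that rose in KYSE150 was 14 (median-of-ratios), 13 (quantile) or 17 (length and GC correction). SLC7A11, the cystine importer, averaged 2.23 ± 0.0983 FPKM in hypoxia and 30.3 ± 1.36 FPKM in normoxia in KYSE410, and 0.574 ± 0.0288 and 33.3 ± 11.2 FPKM in hypoxia and normoxia in KYSE150. CHAC1, which degrades glutathione, had log2 changes of -3.94 in KYSE410 and -4.27 in KYSE150, and its relative CHAC2 -3.05 and -2.56. SESN2, sestrin 2, changed by -3.34 in KYSE410 and -3.29 in KYSE150, and TRIM16L, a tripartite motif gene, by -1.46 and -2.58 (limma, adjusted p at most 8.28e-08 in KYSE410, for TRIM16L, and 4.66e-06 in KYSE150, for SLC7A11).

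Among the other genes that rose, TXNIP, the inhibitor of thioredoxin, averaged 91.1 ± 2.07 FPKM in hypoxia and 3.43 ± 0.431 FPKM in normoxia in KYSE150, a rise of 4.38 ± 0.09 (limma, adjusted p = 1.37e-07), and it stayed below 0.1 FPKM in all KYSE410 libraries. The small MAF genes MAFK and MAFF, partners of NRF2 in binding DNA, rose by 0.89 and 0.85 in KYSE150, whereas in KYSE410 MAFK was not called (-0.02) and MAFF rose by 0.19. In KYSE410 the direction of both depends on scaling, MAFK being called higher under 3 alternatives and lower under the common sum, and MAFF being -0.05 under the common sum. MAFG, the third small MAF, fell in KYSE410 (-0.86) and was not called in KYSE150 (-0.08). BACH1, a repressor at antioxidant response elements, rose by 0.24 in KYSE410 and 0.63 in KYSE150, the KYSE410 rise being lost under the common sum (0.02). AKR7A2, an aldehyde reductase, rose by 1.04 in KYSE410 and 0.71 in KYSE150. In KYSE410 the ferritin chains FTL and FTH1, which store iron, rose by 1.76 and 1.18, SQSTM1, the p62 autophagy receptor that binds KEAP1, by 1.15, and RBX1, a subunit of the KEAP1 ubiquitin ligase, by 1.12. None of these 4 was called in KYSE150 in the test as described. RBX1 was called higher there under median-of-ratios scaling (0.38), the common sum (0.245), quantile normalization (0.35), the length and GC correction (0.48) and without normoxia replicate 2 (0.32). FTH1 was called lower there under the common sum (-0.37), quantile normalization (-0.395), the length and GC correction (-0.16) and without normoxia replicate 2 (-0.24) or 3 (-0.47), and FTL under quantile normalization (-0.37). Both ferritin genes have many pseudogenes and their levels are uncertain.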

How the data were processed

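Messenger RNA captured on beads was sequenced from 12 libraries, 3 per line and oxygen level. Per the submitters' processing notes, bcl2fastq 2.20, fastp 0.22.0, HISAT2 2.2.1 and the build hg38 were used, with no roles stated. Not given in the sources used here are the gene annotation, the strand setting and the tool that quantified genes. FPKM per gene, as deposited by the authors, came as 1 table per line; the values showed no steps of whole reads, so depth is unknown. The labels do not say whether replicates were separate cultures; each p-value therefore reflects library-to-library spread only, possibly technical.

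log2(FPKM + 1) was fitted with limma 3.58.1 under R 4.3.3 (eBayes with a trend on mean level) for genes averaging 1 FPKM or more, within each line and, for differences between lines, over all 12 libraries, with Benjamini-Hochberg adjustment over all genes tested. The fits were tested on simulated data. Tables were handled with pandas 2.3.3 and numpy 2.4.6 under Python 3.11.15, plots with matplotlib 3.10.9, and positions came from GENCODE 29. The members, the 92 other pathway genes, the markers and the tests were chosen with earlier results of these data known. Values in every library are given for members called in both lines, or called with a difference in response of at least 1 or a normoxic difference of at least 2 on the log2 scale; of the other pathway genes, the 4 largest called changes each way per line and 7 chosen genes are taken, of which 1 is not reported here. Replicate numbers did not pair the samples: deviations of same-numbered libraries correlated at -0.069 to 0.084, so no block was used. Alternatives covered scaling, pseudocount, filter, threshold, block, removal of length and GC trends, and the omission of each library in turn.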

Additional observations from a re-analysis of the deposited data

Results flagged for a closer look

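The oxygen response differed between the lines for 27 members by the test of the difference itself (limma, adjusted p under 0.05 over all genes tested), against 63.3% of all genes. All values are log2 changes in KYSE410 minus log2 changes in KYSE150, and the oxygen level and the set of libraries cannot be told apart in KYSE410. The response was lower in KYSE410 for GCLC (-1.55), TXNRD1 (-0.93), ABCC1 (-0.89), SRXN1 (-0.62), NFE2L2 (-0.60) and GSS (-0.26). Among peroxiredoxins it was higher in KYSE410 for PRDX1 (1.75), PRDX5 (1.53), PRDX4 (1.21), PRDX2 (0.56) and PRDX3 (0.42). It was also higher for the thioredoxins TXN (0.96) and TXN2 (0.50), for the glutathione genes GPX1 (1.42), GPX4 (0.58) and GCLM (0.42), and for SOD1 (1.10) and CAT (0.23). Among conjugation and export genes it was higher for MGST3 (1.34), GSTP1 (0.88), MGST2 (0.79), MGST1 (0.73) and ABCC2 (0.46), and among reductases and NADPH suppliers for AKR1C2 (1.89), AKR1C3 (1.30), NQO1 (1.15) and ME1 (0.65). The 27 include MGST1, ABCC2, AKR1C2 and AKR1C3, which passed the filter on low values through KYSE150 only and averaged under 1 FPKM in KYSE410. The size of their differences depends on the pseudocount: with 0.1, that of AKR1C3 was 3.12 and that of ABCC2 0.16, no longer called (limma, adjusted p = 0.584). Under the common sum the TXN2 difference was 0.25 and not called (limma, adjusted p = 0.0528).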

How the results depend on the processing

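The counts of called members in each line and of normoxic differences stayed within 1.5 times their main values under every alternative, and the lower differences in response numbered 11 under common-sum scaling, against 6. Leaving out single libraries gave 15 to 16 higher and 12 to 12 lower in KYSE410, 4 to 6 and 20 to 24 in KYSE150, 19 to 22 and 5 to 8 for the difference, and 14 to 15 and 20 to 21 in normoxia. With replicate number as a block the counts were 15 and 12, 4 and 22, 20 and 6, and 15 and 20; same-numbered libraries did not deviate together, and the block ended the calls of the GSS, CAT and CHAC1 differences and added that of SOD2. Among values called in the main test or under the alternative, those that changed sign were, in KYSE410 under median-of-ratios scaling, KEAP1 0.225, ME1 0.006 and MAFK 0.224; under the common sum, PRDX6 -0.143, NQO1 -0.196, GPX1 -0.067 and MAFF -0.046, and the CAT difference -0.013; under quantile normalization, KEAP1 0.307, PRDX3 -0.155, NQO1 -0.293, GPX1 -0.312, GPX4 -0.038, GSTP1 -0.056, ME1 0.008 and MAFK 0.152, the PRDX3 difference -0.161 and the normoxic GSTP1 contrast 0.154; after the length and GC correction, KEAP1 0.168, ME1 0.046 and MAFK 0.203, and the normoxic OSGIN1 contrast 0.288. The cause was not tested. Depth is unknown, so no counting error can be given for the low genes.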

Other observations

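Partner genes changed their proportions. In each library the FPKM of GCLC, the catalytic subunit of glutamate-cysteine ligase, was divided by that of its modifier subunit GCLM. The ratio was 1.00 ± 0.036 in hypoxic KYSE410 and 3.36 ± 0.049 in normoxic KYSE410, and 1.93 ± 0.062 in hypoxic KYSE150 and 1.54 ± 0.057 in normoxic KYSE150 (SD, n = 3 each). The ratio was thus lower in hypoxia in KYSE410 and higher in hypoxia in KYSE150, without overlap in either line. TXN over its reductase TXNRD1 was 13.2 ± 0.94 in hypoxic and 0.761 ± 0.066 in normoxic KYSE410, and 5.48 ± 0.39 in hypoxic and 1.202 ± 0.36 in normoxic KYSE150. HMOX1 over HMOX2 was 0.299 ± 0.0087 in hypoxic and 0.0510 ± 0.0011 in normoxic KYSE410, and 0.577 ± 0.074 in hypoxic and 0.0863 ± 0.0033 in normoxic KYSE150. These ratios use levels per transcript length and are free of a scale factor per library, and they were not tested. They are not free of the trend with transcript length in KYSE410. The longest transcript has 869 bases for TXN and 4277 bases for TXNRD1.

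The levels of 4 genes that were called different between the lines in normoxia are set side by side in hypoxia. TXNRD1 averaged 40.6 ± 2.32 FPKM in hypoxic KYSE410 and 37.8 ± 3.16 FPKM in hypoxic KYSE150, GCLC 13.7 ± 0.428 and 13.3 ± 0.475 FPKM, SRXN1 14.1 ± 1.46 and 16.9 ± 0.692 FPKM, and NFE2L2 38.5 ± 0.889 and 33.6 ± 3.88 FPKM. In normoxia the same genes averaged 385 and 188, 75.2 and 24.4, 85.8 and 65.8, and 102 and 58.5 FPKM in KYSE410 and KYSE150. Other genes called higher in normoxic KYSE410 did not have such close levels in hypoxia. GCLM averaged 13.71 and 6.895 FPKM in hypoxic KYSE410 and KYSE150, against 22.35 and 15.83 FPKM in normoxia. NQO1 averaged 160.8 and 48.07 FPKM in hypoxia, against 155.8 and 105.3 FPKM in normoxia. All genes of this paragraph were chosen after their values were seen, and the hypoxic contrast between lines was not tested.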
